A study of Mus musculus with 12 samples.

Results

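CD8 single-positive (CD8SP) thymocytes were compared with double-negative (DN) thymocytes, which sets an end point of development in the thymus against its start. The members were the 3 arrays titled CD8SP and the 3 titled DN, 6 of the 12 arrays of the series. The CD8SP cells were sorted as CD4-CD8a+TCRbhi and the DN cells as CD4-CD8a-TCRb-, so both lacked CD4. All cells came from C57BL/6 mice, were untreated, and were lysed for RNA straight after sorting, with no culture. The other arrays held double-positive (DP, CD4+CD8a+) and CD4 single-positive (CD4SP, CD4+CD8a-TCRbhi) thymocytes, 3 each. The age and sex of the mice, and whether an array is 1 mouse or a pool, are not given in the sources used here. The p-values therefore measure only the spread between these arrays, which may be technical.

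Thymocytes enter the DN stage as progenitors, rearrange the T cell receptor (TCR) β chain, divide, and become DP cells that rearrange the α chain and undergo selection. Cells selected on MHC class I become CD8SP cells, which later leave the thymus and, once activated, kill target cells. Killing works through granules that carry perforin, which opens the target membrane, granzymes, which are proteases, and packing proteins, and cytotoxic T cells share these genes and many surface receptors with natural killer (NK) cells.

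Each deposited value is a logarithm, taken as log2, and has the 3 DP arrays as its zero point, so a value above 0 is a level above that of DP cells. The difference of 2 groups on this scale is the log ratio of the groups. A gene is the mean of its probe sets that carry exactly 1 symbol. Differences are given as CD8SP minus DN ± the standard error of the limma fit, with 3 arrays per group, and a gene was called at a Benjamini-Hochberg adjusted p under 0.05 over all 18193 genes. "Rose" and "fell" are used of called genes only, and mean higher or lower in CD8SP than in DN cells. The samples are bulk RNA, so fewer cells of a type and less RNA per cell cannot be told apart.

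The groups lay at opposite ends of the first principal component of the 6 arrays, which held 71.7% of the variance. The replicates numbered 1 stood apart on the second component, with 10.3% of the variance, where DN replicate 1 lay at 18.8, CD8SP replicate 1 at 33.0 and the other arrays between -21.1 and -8.11. These 2 arrays also received low weights when arrays were weighted by their spread, 0.527 and 0.276 against 0.694 to 1.81 for the other 10. On DN replicate 1 the heat shock gene Hspa1a read 2.57 and Hspa1b 3.76, while DN replicates 2 and 3 had -0.35 and -0.03 for Hspa1a and 0.97 and 1.67 for Hspa1b; these genes were picked after their values were seen. Several results that turn on these arrays are given without them as well. Genes named after their values were seen are given on all arrays only. Having 3 arrays a group limits the precision.

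The CD8 genes followed the labels in direction. Cd8a read -2.63, -4.59 and -3.94 on the DN arrays and -0.43, -0.37 and -0.20 on the CD8SP arrays, a rise of 3.39 ± 0.38 (adjusted p = 4.16e-05). Cd8b1, the partner chain of the CD8 coreceptor, rose by 2.86 ± 0.29 (adjusted p = 2.12e-05). Cd4 read -3.88, -6.49 and -5.29 in DN and -8.39, -9.20 and -9.12 in CD8SP cells, a difference of -3.68 ± 0.50 (adjusted p = 0.000172). Both groups were sorted as CD4-, and with quantile normalization the Cd4 difference was -0.16 and its call ended (adjusted p = 0.831). That normalization gives every array the same spread, including the DP arrays, whose values average 0 by construction. The part of this in the calls it ended, here and below, was not tested. DN replicate 1 had the highest Cd4 and Cd8a of the DN arrays, and no array of either group overlapped with the other group for these 3 genes.

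Between DN and CD8SP cells 7447 of 18193 genes were called, 40.9% of those tested: 3397 rose (18.7%) and 4050 fell (22.3%). These shares are the background for the counts of every list below. By at least 2-fold, 742 genes rose (4.08%) and 969 fell (5.33%). The median difference over all genes was 0.03. The 12 largest rises included genes of migration and adhesion, interferon-stimulated genes and killer-cell genes. Dapl1 read -0.27, 0.02 and -0.28 in DN cells and 5.61, 6.38 and 6.29 in CD8SP cells, a 77.3-fold rise (6.27 ± 0.22, adjusted p = 1.14e-08). Ccr7, the chemokine receptor that guides thymocytes into the medulla, rose by 6.23 ± 0.61 (adjusted p = 1.71e-05), with DN replicate 1 at -1.16 and the other DN arrays at 1.61 and 1.41. Itgae, the αE integrin chain CD103 that binds E-cadherin, read 1.36, 3.21 and 3.27 in DN cells and 7.44, 7.71 and 7.66 in CD8SP cells, a 31.7-fold rise. The others of the 12 were Tdgf1 (6.09), Tdrp (5.83), Ifi27l2a (4.58), Tesc (4.40), Ifi213 (4.40), Ctsw (4.38), Ifit1 (4.29), Gabrr2 (4.24) and Crtam (4.09).

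**Figure D1:**
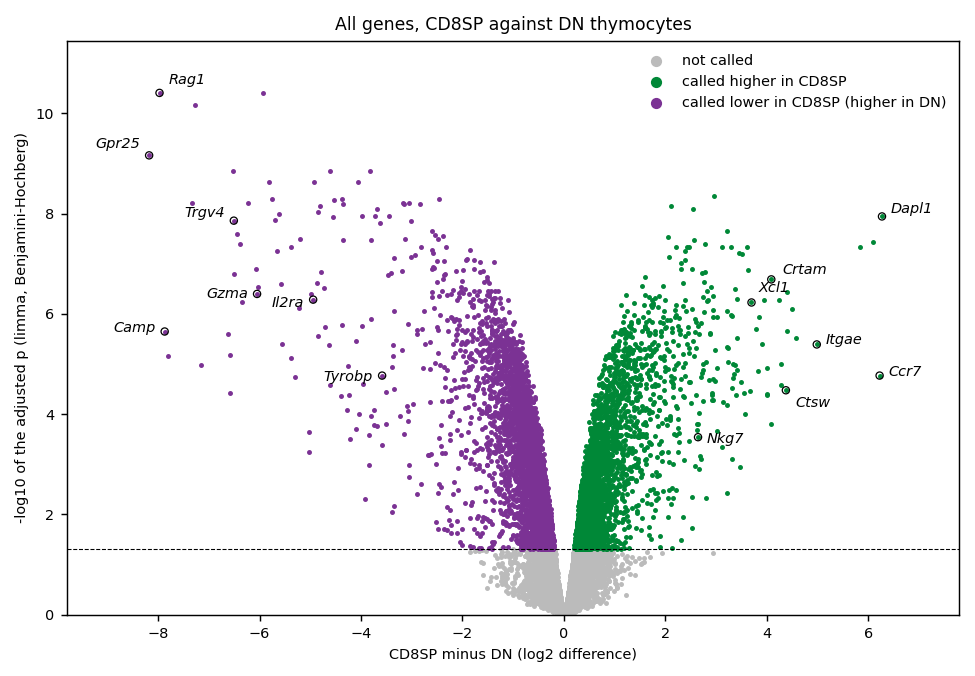
Each point is a gene, with the log2 difference CD8SP minus DN on the horizontal axis and -log10 of the limma adjusted p on the vertical axis; the dashed line marks the threshold of 0.05. Green points are the 3397 genes called higher in CD8SP and purple points the 4050 called lower, with Dapl1 and Ccr7 at the far right and Gpr25, Rag1 and Camp at the far left.

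The 12 largest falls held both recombinase genes, neutrophil genes and an immunoglobulin segment. Rag1, a subunit of the recombinase that cuts antigen receptor genes, read -1.15, -1.40 and -1.15 in DN and -9.01, -9.45 and -9.16 in CD8SP cells, a 252-fold difference. The largest fall was that of Gpr25, which encodes an orphan receptor, from 8.12, 8.49 and 8.40 to 0.25, 0.07 and 0.15, the level of DP cells. The remaining falls were Camp (-7.87), S100a9 (-7.80), Rag2 (-7.33), Endou (-7.28), S100a8 (-7.16), Igkv8-30 (-6.63), Esm1 (-6.59), Lcn2 (-6.59), Rapgef3 (-6.52) and Morc1 (-6.51). Camp, S100a8, S100a9 and Lcn2 are genes of neutrophils and Igkv8-30 is an immunoglobulin light chain segment.

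All 30 listed cytotoxic effector genes, which encode granule proteins, secretion factors, death ligands and cytokines, were on the arrays. Of these, 10 rose, 3 fell and 17 were not called, and the arrays of the groups did not overlap for 16. Over all genes the matching shares are 18.7%, 22.3% and, for no overlap, 49.7%. The median difference of the list was 0.20 beside 0.03 over all genes. A gene that was not called is described as at most 2-fold higher in CD8SP where the upper bound of its 95% interval stayed under 1 on the log2 scale, and as undecided where it did not. By this rule 14 of the 17 were at most 2-fold higher in CD8SP and 3 were undecided. Over all genes 77.3% have such a bound without being called higher, so it describes each gene and marks nothing particular to the list.

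Ctsw, a cysteine protease of cytotoxic cells also called lymphopain, read 0.52, 2.19 and 2.27 on the DN arrays and 5.80, 6.18 and 6.13 on the CD8SP arrays. It rose 20.8-fold (4.38 ± 0.47, adjusted p = 3.35e-05), and every CD8SP array lay above every DN array. Nkg7, a granule membrane protein, read 3.91, 5.44 and 5.28 in DN and 7.13, 7.73 and 7.71 in CD8SP cells, a 6.26-fold rise (2.65 ± 0.39, adjusted p = 0.000289). All 3 DN arrays lay far above the DP level and below all 3 CD8SP arrays. Cst7, the cathepsin inhibitor cystatin F, had the same order, with 2.82, 3.58 and 3.64 in DN and 5.09, 5.22 and 5.26 in CD8SP cells, a rise of 1.84 ± 0.35 (adjusted p = 0.0017). Quantile normalization ended the call of Cst7 (adjusted p = 0.463) and that of Unc13d (adjusted p = 0.238). Ctsc, the protease that activates granzymes, rose by 0.60 ± 0.13 (adjusted p = 0.00315), with DN arrays from 0.34 to 0.77 and CD8SP arrays from 1.09 to 1.28.

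Perforin and the chemokine lymphotactin also rose. Prf1, which encodes perforin, read -0.29, -0.16 and 0.01 in DN and 1.03, 0.82 and 0.97 in CD8SP cells, a 2.12-fold rise (1.08 ± 0.11, adjusted p = 2.74e-05). Its 2 probe sets differed, with changes of 0.05 and 2.11, so its size depends on which is read. Xcl1, lymphotactin, read -0.43, 0.18 and 0.27 in DN and 3.23, 3.79 and 4.11 in CD8SP cells, a 13.0-fold rise (3.70 ± 0.22, adjusted p = 5.94e-07). DN arrays lay within 0.43 of the DP level for both genes. The other rises were Tnf, a cytokine (1.28 ± 0.13, adjusted p = 2.7e-05), Ccl4, a chemokine (0.86 ± 0.13, adjusted p = 0.000366), Gzmf, a granzyme (0.84 ± 0.09, adjusted p = 3.32e-05), and Unc13d, which primes granules for release (0.58 ± 0.14, adjusted p = 0.00594).

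Gzma, which encodes granzyme A, went the other way by the largest margin of the list. It read 2.96, 3.20 and 3.11 in DN cells and -2.12, -3.09 and -3.66 in CD8SP cells, a 66.3-fold higher level in DN cells (-6.05 ± 0.34, adjusted p = 4.01e-07). DN cells were above and CD8SP cells below the DP level on every array. Fasl, the ligand of the death receptor Fas, read 0.60, 1.18 and 1.03 in DN and 0.11, 0.14 and 0.09 in CD8SP cells, a difference of -0.83 ± 0.14 (adjusted p = 0.000795). Rab27a, which tethers granules at the membrane, read 0.47, 0.51 and 0.74 in DN and -0.25, 0.14 and -0.01 in CD8SP cells, a difference of -0.61 ± 0.11 (adjusted p = 0.00121).

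Of the 17 effector genes that were not called, the arrays of 14 overlapped, and those of Ifng, Stxbp2 and Lamp1 did not. Gzmb, granzyme B, read 0.47, 1.47 and 1.72 in DN and 0.79, 1.01 and 0.84 in CD8SP cells, a difference of -0.34 with a 95% interval from -0.93 to 0.26. Its groups overlapped only through DN replicate 1, and without that array Gzmb was called lower in CD8SP (-0.71, adjusted p = 0.00608). Ccl5, a chemokine stored by cytotoxic cells, read 0.28, 2.06 and 2.37 in DN and 1.43, 0.39 and 0.61 in CD8SP cells, a difference of -0.76 with an interval from -1.76 to 0.24. Without DN replicate 1 it too was called lower in CD8SP (-1.40, adjusted p = 0.00222), and the count of effector genes called lower went from 3 to 5.

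The remaining genes with an upper bound under 2-fold were Stxbp2, Lamp1, Srgn, Gzmd, Gzmg, Tnfsf10, Stx11, Serpinb9, Gzmm, Ccl3, Gzmc and Serpinb6b. Their differences ran from -1.34 for Gzmd to 0.31 for Tnfsf10. For Srgn, the proteoglycan on which granule proteins are stored, the DN arrays at 0.24, 0.76 and 0.89 overlapped the CD8SP arrays at 0.79, 0.94 and 0.98. Serpinb9, which shields a cell from its own granzyme B, had an interval from -0.19 to 0.52. For Lamp1, a lysosome membrane protein, the interval ran from -0.40 to 0.03. Gzmd was called lower without CD8SP replicate 3 (-2.14, adjusted p = 0.0296), and Stxbp2 higher without CD8SP replicate 1 (0.29, adjusted p = 0.0399).

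The undecided genes were Ifng, Gzmk and Gzme. Ifng, interferon γ, read -1.37, 0.06 and 0.43 in DN and 0.64, 0.46 and 0.93 in CD8SP cells, with a difference of 0.97 and an interval from 0.15 to 1.80 (adjusted p = 0.0593). Its groups did not overlap, and without DN replicate 3 it was called higher in CD8SP (1.33, adjusted p = 0.0146). For Gzmk the DN arrays lay between -0.48 and 0.03 and the CD8SP arrays at 1.57, -0.36 and -0.11, so 1 array carried its difference of 0.51. The genes from Gzmb to Gzmg are close copies in a single cluster, and probe sets could detect more than 1 of them, so the values of single members are uncertain.

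DN replicate 1 was the lowest of the DN arrays for 24 of the 30 effector genes, so the DN mean of most of them rests on where that array is placed. The 8 measured NK and innate lymphoid markers had a mean value between 1.03 and 2.37 over the DN arrays and between 0.77 and 0.99 over the CD8SP arrays, again with DN replicate 1 at the low end. The part of such cells in the DN levels of these genes was not tested.

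**Figure D2:**
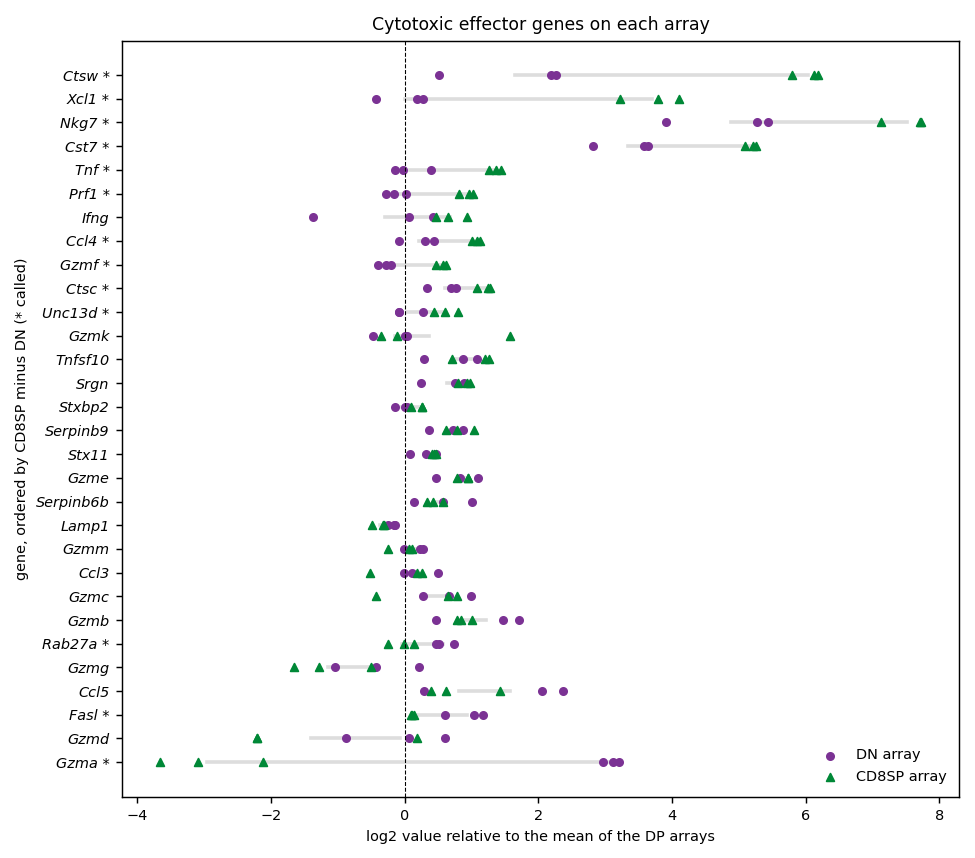
The 30 cytotoxic effector genes are ordered by CD8SP minus DN, with the log2 value relative to the DP mean on the horizontal axis for each of the 3 DN arrays (purple circles) and 3 CD8SP arrays (green triangles); grey bars join the group means and an asterisk marks a called gene. Ctsw and Xcl1 lie at the top with separated arrays, Nkg7 and Cst7 follow with separated arrays, and Gzma lies alone at the bottom.

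The promoters of 4 effector genes are shown because they hold the short motif TGTGGT, the core that Runx factors read, and because the genes moved in both directions. Runx factors are regulators of the CD8 lineage, and Runx3 itself rose by 0.96. The windows are the 250 bases before the gene start on the gene's strand, from RefSeq on GRCm38.p6, written 5′ to 3′ with the motif or its reverse complement ACCACA in capitals. Nkg7 is at chr7:43436888-43437137 (+ strand), Xcl1 at chr1:164935523-164935772 (- strand), Prf1 at chr10:61297586-61297835 (+ strand) and Gzma at chr13:113100982-113101231 (- strand). The first 3 rose and Gzma fell.
Nkg7: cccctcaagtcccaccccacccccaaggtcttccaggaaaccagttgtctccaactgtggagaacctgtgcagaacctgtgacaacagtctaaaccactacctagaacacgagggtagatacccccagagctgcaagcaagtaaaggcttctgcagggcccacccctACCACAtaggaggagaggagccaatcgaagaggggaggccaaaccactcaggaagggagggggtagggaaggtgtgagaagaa
Xcl1: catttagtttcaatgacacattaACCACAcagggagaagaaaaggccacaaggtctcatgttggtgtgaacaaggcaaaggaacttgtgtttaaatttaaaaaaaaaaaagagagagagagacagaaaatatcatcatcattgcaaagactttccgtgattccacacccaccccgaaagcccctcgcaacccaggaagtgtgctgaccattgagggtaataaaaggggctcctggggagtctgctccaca
Prf1: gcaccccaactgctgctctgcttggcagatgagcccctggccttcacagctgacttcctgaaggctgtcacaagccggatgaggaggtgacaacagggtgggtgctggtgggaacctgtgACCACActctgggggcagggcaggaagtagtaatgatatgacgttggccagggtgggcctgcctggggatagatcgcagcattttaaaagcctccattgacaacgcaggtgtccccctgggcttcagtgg
Gzma: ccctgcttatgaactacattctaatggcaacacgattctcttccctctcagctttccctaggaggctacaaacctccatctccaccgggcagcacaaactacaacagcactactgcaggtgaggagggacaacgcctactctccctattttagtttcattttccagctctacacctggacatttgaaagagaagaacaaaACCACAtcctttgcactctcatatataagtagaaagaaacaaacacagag
The motif began at position -83 before the Nkg7 start, -227 for Xcl1, -130 for Prf1 and -50 for Gzma. Either strand of the motif was found in 14% of 32851 promoters of that length. Of the 30 effector genes 26 had a promoter in the table, with 29 promoters between them. Of these genes 16 held the motif in at least 1 promoter, a count of genes, whereas the 14% is a share of promoters. The motif was present in 5 of 7 genes that rose, 2 of 3 that fell, 8 of 13 that were at most 2-fold higher in CD8SP and 1 of 3 undecided genes. All 6 granzyme genes of the cluster on chromosome 14 held it, and as copies of each other they are not independent. A match describes these letters in this window and is not a binding site.

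Of 25 listed receptors of NK and cytotoxic cells, 23 were measured: 6 rose, 9 fell and 8 were not called, against 18.7% and 22.3% of all genes. The median difference was -0.15, and the arrays did not overlap for 16 of the 23 (49.7% of all genes). DN replicate 1 was the lowest DN array for 21 of the 23.

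Crtam, an adhesion receptor of activated cytotoxic cells, rose the most. It read 1.38, 2.03 and 1.74 in DN and 5.62, 5.87 and 5.93 in CD8SP cells, a 17.0-fold rise (4.09 ± 0.21, adjusted p = 2.06e-07). Cd226, the activating receptor DNAM-1, read -0.36, -0.06 and -0.33 in DN and 2.79, 3.17 and 3.41 in CD8SP cells, a rise of 3.37 ± 0.18 (adjusted p = 3.2e-07). Both had narrow, well separated groups, and DN cells were at or below the DP level for Cd226. Klrd1, the CD94 chain that pairs with NKG2 receptors, read 1.76, 3.29 and 3.61 in DN and 5.19, 6.28 and 6.23 in CD8SP cells (3.01 ± 0.42, adjusted p = 0.000217). Il2rb, the β chain of the IL-2 and IL-15 receptors, read 1.19, 2.45 and 2.66 in DN and 4.27, 4.47 and 4.33 in CD8SP cells (2.26 ± 0.36, adjusted p = 0.000563). For both, DN cells already lay above DP cells and CD8SP cells lay higher still. Hcst, the adaptor DAP10, rose by 2.27 ± 0.15 (adjusted p = 1.19e-06) and Cd160 by 1.53 ± 0.22 (adjusted p = 0.000247). Quantile normalization ended the calls of Il2rb (1.57, adjusted p = 0.234) and Cd160 (1.14, adjusted p = 0.245).

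Tyrobp, the adaptor DAP12 of NK and myeloid receptors, read 2.43, 3.78 and 4.27 in DN cells and lay between -0.16 and 0.00 in CD8SP cells, a difference of -3.59 ± 0.35 (adjusted p = 1.71e-05). The CD8SP arrays sat at the DP level. Cd244a, the receptor 2B4, read 2.41, 2.71 and 3.14 in DN and 0.27, -0.70 and 0.36 in CD8SP cells (-2.78 ± 0.26, adjusted p = 1.2e-05). Fcgr3, an Fc receptor, differed by -2.63 ± 0.43 and Klrc1, the NKG2A partner of Klrd1, by -1.95 ± 0.46. Klrd1 and Klrc1, the chains of a single heterodimer, thus moved in opposite directions. Smaller falls were Klra7 (-1.41), Il12rb2 (-1.07), Fcer1g (-0.94), Klrk1 (-0.85), which encodes NKG2D, and Klrb1b (-0.62). Quantile normalization ended the calls of Klrc1 (adjusted p = 0.0977), Klra7 (adjusted p = 0.229), Fcer1g (adjusted p = 0.0783) and Klrb1b (adjusted p = 0.34). Klra7 was at -0.082 (adjusted p = 0.838) with its least variable probe set. Klrb1b turned to 0.49 when its least variable probe set was read (adjusted p = 0.0574). With the most variable probe sets left out it was called higher in CD8SP (0.49, adjusted p = 0.0297). Klrk1 lost its call without DN replicate 2 (adjusted p = 0.0559) or DN replicate 3 (adjusted p = 0.0516).

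Among the receptors that were not called, Il18r1 read 0.70, 2.73 and 2.82 in DN and 1.68, 2.42 and 2.31 in CD8SP cells, with an interval from -1.01 to 1.11. Ncr1, the NK receptor NKp46, differed by -0.69 (adjusted p = 0.0535) and was called lower without DN replicate 1 (-0.95, adjusted p = 0.00999), as was Klre1 (-0.53, adjusted p = 0.0274). Slamf7 was called higher without DN replicate 2 (0.76, adjusted p = 0.0172) and Klra1 without CD8SP replicate 1 (0.78, adjusted p = 0.0225). Klrg1 and Il18rap were at most 2-fold higher in CD8SP, and Klrc2 was undecided.

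**Figure D3:**
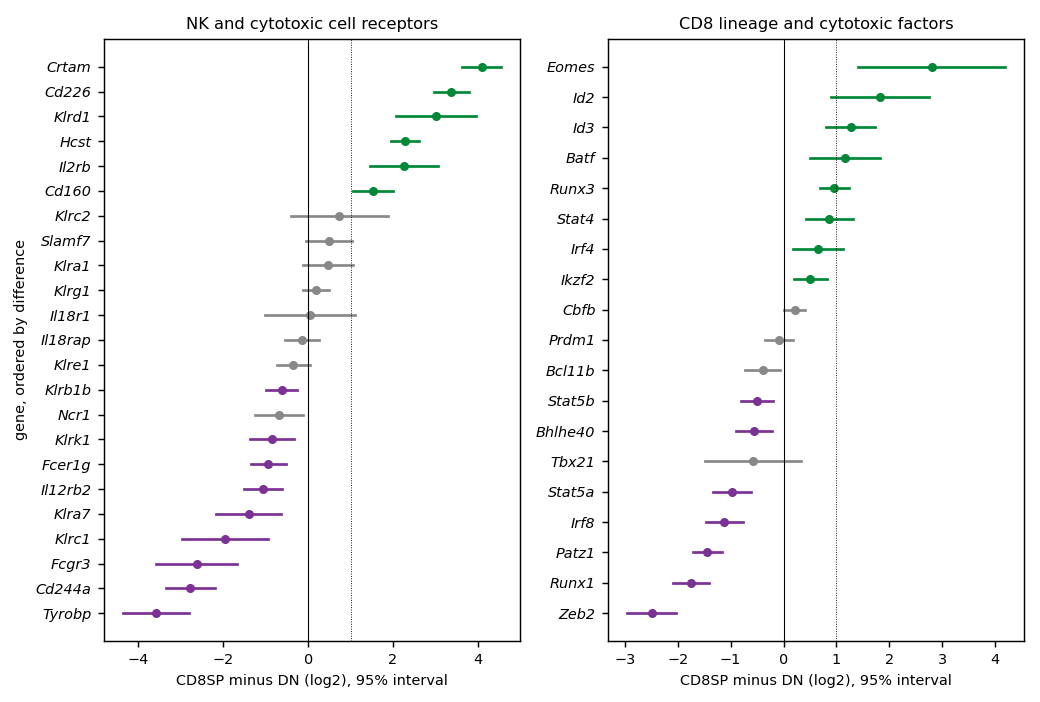
Points show CD8SP minus DN on the log2 scale and bars its 95% interval for the 23 measured NK and cytotoxic cell receptors (left) and the 19 CD8 lineage and cytotoxic transcription factors (right); green marks called higher, purple called lower and grey not called, and the dotted line marks 1. Crtam and Eomes head the panels and Tyrobp and Zeb2 close them.

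Of 19 measured transcription factors of the CD8 lineage and of cytotoxic cells, 8 rose, 7 fell and 4 were not called, beside 18.7% and 22.3% of all genes, with a median of -0.08. Quantile normalization left 4 higher and 4 lower. Leaving out the most variable probe sets, which can leave a gene unmeasured, left 4 higher. Runx3, the factor that sets the CD8 fate, read 0.69, 1.19 and 1.11 in DN and 1.98, 1.92 and 1.98 in CD8SP cells, a rise of 0.96 ± 0.12 (adjusted p = 0.000108). Its relative Runx1 read -0.22, 0.32 and 0.34 in DN and -1.83, -1.54 and -1.42 in CD8SP cells (-1.75 ± 0.16, adjusted p = 8.95e-06). The DN and CD8SP arrays of both genes were fully separated, in opposite directions. The 6 Runx1 probe sets ranged from -2.50 to 0.05, and both the one of highest mean and the least variable one gave 0.05. Eomes, a T-box factor of memory and killer cells, read 0.42, 2.69 and 2.69 in DN and 3.97, 5.30 and 4.94 in CD8SP cells, a 6.96-fold rise (2.80 ± 0.63, adjusted p = 0.00473). The arrays numbered 1 were the lowest of both groups for Eomes. The other rises, named after their values were seen, were Id2 (1.82), Id3 (1.27), Batf (1.16), Stat4 (0.87), Irf4 (0.65) and Ikzf2 (0.51), of which Id2 and Id3 restrain E proteins, Batf is an AP-1 factor and Stat4 relays IL-12 signals.

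The other T-box factor, Tbx21 (T-bet), named here after its values were seen, read 0.72, 2.13 and 2.29 in DN and 1.43, 0.85 and 1.14 in CD8SP cells and was not called (-0.58, adjusted p = 0.286). Its groups overlapped only through DN replicate 1, and its difference without that array is not given here. Zeb2, a transcriptional repressor, read 2.02, 2.66 and 2.83 in DN cells and lay within 0.04 of the DP level in CD8SP cells, a difference of -2.49 ± 0.21 (adjusted p = 6.18e-06). Its 5 probe sets ranged from -5.55 to 0.11, and the least variable of them gave 0.11. Patz1 fell by 1.44 ± 0.13, with CD8SP arrays from -1.34 to -1.30. Further falls were Irf8 (-1.12), Stat5a (-0.97), Bhlhe40 (-0.56) and Stat5b (-0.50). Bhlhe40 lost its call without DN replicate 3, and Stat5b lost it without DN replicate 2, DN replicate 3 or CD8SP replicate 1. Quantile normalization ended the calls of Stat5a, Stat5b and Bhlhe40 (adjusted p = 0.0718, 0.485 and 0.0723).

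Genes associated with the CD4 lineage were not simply lower in CD8SP than in DN cells. Of 10 measured, 5 rose, 2 fell and 3 were not called, beside 18.7% higher and 22.3% lower over all genes. Izumo1r (2.52 ± 0.12), Icos, a costimulatory receptor (3.01 ± 0.28), Lef1 (1.0 ± 0.07), Tnfrsf4 (0.95 ± 0.12) and Satb1 (0.55 ± 0.13) rose. Quantile normalization ended the call of Tnfrsf4 (adjusted p = 0.0801), and the probe set of highest mean that of Satb1 (adjusted p = 0.0523). Gata3, a factor of the CD4 lineage that also acts in DN cells, read -0.15, 0.59 and 0.60 in DN and -1.36, -1.41 and -1.21 in CD8SP cells (-1.67 ± 0.22, adjusted p = 0.000121). Myb, a factor of progenitors and early thymocytes, fell by 3.18 ± 0.10. Zbtb7b (ThPOK), the CD4-fate factor, named after its values were seen, was not called: DN arrays lay from 0.23 to 0.39 and CD8SP arrays from -0.23 to 0.61.

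Maturation and egress genes moved upward in CD8SP cells, with 21 of 27 measured members called higher, 4 lower and 2 not called, and a median of 1.90. Klf2, the factor that switches on egress genes, read 0.78, 2.06 and 2.12 in DN and 5.29, 5.65 and 5.74 in CD8SP cells, a 15.0-fold rise (3.91 ± 0.31, adjusted p = 3.92e-06). Its target S1pr1, the receptor needed to leave the thymus, named after its values were seen, rose by 3.82 ± 0.36, from -0.02, 1.31 and 1.15 to 4.0, 4.99 and 4.91. Itgb7, the integrin chain that pairs with Itgae, rose by 3.63 ± 0.18, Slfn2, a quiescence factor, by 2.74 ± 0.16, and Foxo1 by 1.90 ± 0.13. The falls were Cd24a, the heat-stable antigen lost on mature thymocytes (-3.16 ± 0.10), Ifngr1 (-1.41), Itga4 (-0.75) and S100a4 (-1.28). Quantile normalization ended the calls of Ifngr1 (adjusted p = 0.0574) and S100a4 (adjusted p = 0.0877). S100a4 is the only called member of the list named here with overlapping arrays (DN replicate 1 at 0.76, CD8SP replicate 1 at 1.02), and it lost its call without DN replicate 2 or 3 or CD8SP replicate 2 or 3 (adjusted p between 0.0624 and 0.103).

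Of the Gimap family, GTPases of lymphocyte survival, 7 of 8 rose and 0 fell by limma, also 0 at an unadjusted p under 0.05, with a median of 2.17. Gimap3 read 0.31, 2.55 and 2.12 in DN and 5.60, 5.67 and 5.71 in CD8SP cells (4.0 ± 0.44), and Gimap8 rose by 2.94 ± 0.19, Gimap7 by 2.25 ± 0.16 and Gimap6 by 2.10 ± 0.21. Of 16 chemokine receptors 4 were higher and 3 lower, shares near the 18.7% and 22.3% of all genes. Ccr8 (1.46) was among the higher. Ccr9, a receptor of thymocytes and gut-homing T cells, rose by 1.4 ± 0.12. Cxcr6, a receptor of tissue-resident and cytotoxic cells, read 0.53, 2.89 and 3.04 in DN and 4.71, 5.87 and 5.81 in CD8SP cells (3.31 ± 0.56, adjusted p = 0.000794). Cxcr5, Ccr2 and Ccr6 fell by 1.71, 1.33 and 1.29, although the 4 Ccr2 probe sets ranged from -3.06 to 0.07, and quantile normalization ended the calls of Cxcr5 (adjusted p = 0.286) and Ccr6 (adjusted p = 0.106).

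Of 23 measured genes of the TCR complex and its signalling, 13 rose and 1 fell, with a median of 0.52. Cd2, an adhesion receptor, read -0.86, -0.62 and -0.67 in DN and 2.57, 2.86 and 2.95 in CD8SP cells (3.51 ± 0.15, adjusted p = 6.29e-08). The kinases Txk and Fyn rose by 2.95 ± 0.19 and 1.91 ± 0.14, and Cd6 by 2.28 ± 0.16. The exception was Trat1, a TCR adaptor, which fell by 1.17 ± 0.10. Among genes that TCR signals induce, 14 of 21 rose and 2 fell. Nab2, Cd69, Egr1 and Egr2 rose by 2.70, 2.45, 2.44 and 2.30. Myc, a growth regulator, read 3.50, 3.76 and 3.86 in DN and 2.25, 2.78 and 2.86 in CD8SP cells, a difference of -1.08 ± 0.16 at a level that stayed above DP in both groups. Pdcd1 (PD-1) fell by 1.17 ± 0.24, a call that quantile normalization ended (adjusted p = 0.104).

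None of the 28 measured genes of the DN stage and of progenitors was called higher in CD8SP cells by limma, and 19 fell, with a median of -1.28. At an unadjusted p under 0.05, 1 was higher. Without CD8SP replicate 2 the count called higher was 2, and without CD8SP replicate 3 it was 1. Ptcra, the pre-TCR α chain, read 1.08, 1.21 and 1.37 in DN and -3.12, -3.07 and -3.23 in CD8SP cells, a 20.5-fold difference (-4.36 ± 0.14, adjusted p = 6.44e-09). Il2ra, the CD25 chain that marks intermediate DN stages, read 3.98, 4.80 and 4.90 in DN and 0.24, -0.78 and -0.62 in CD8SP cells (-4.95 ± 0.29). Notch3, a receptor of the Notch pathway, fell by 2.90 ± 0.21 and Mycn by 2.38 ± 0.12, the latter with a probe set range from -7.03 to 0.08. Of 8 measured recombination genes 6 fell and none was called higher by limma or passed an unadjusted p under 0.05 in that direction (1 was called higher without CD8SP replicate 1). The differences were -7.33 for Rag2, -4.55 for Dntt, the enzyme that adds junction bases, and -2.57 for Lig4, a ligase of end joining. DN cells were below DP cells for each of these 3 genes and for Rag1.

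Cell cycle genes were lower in CD8SP cells, with 24 of 30 measured members called lower, 0 called higher by limma, also 0 at an unadjusted p under 0.05, and a median of -1.05. With quantile normalization 13 were called lower. Ccne2, an S-phase cyclin, read 0.94, 0.47 and 0.52 in DN and -1.26, -1.60 and -1.64 in CD8SP cells (-2.14 ± 0.18). The replication genes Cdc6, Gins2 and Mcm2 fell by 1.65 ± 0.13, 1.46 ± 0.12 and 0.95 ± 0.08. Of 17 D cyclins, CDK inhibitors and quiescence genes, 6 rose and 3 fell, beside 18.7% and 22.3% of all genes. Cdk6, a kinase of the D cyclins, fell by 2.50 ± 0.11 and Cdk4 by 1.13 ± 0.10, while the inhibitor Cdkn2d rose by 1.45 ± 0.12 and the inhibitor Cdkn1a fell by 1.23 ± 0.18. Quantile normalization ended the call of Cdkn1a (adjusted p = 0.0931). The D cyclin Ccnd2, named after its values were seen, rose by 2.25 ± 0.31 from 3.86, 4.77 and 4.72 to 6.66, 6.65 and 6.78.

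Metabolic lists were lower in CD8SP cells. Of 12 cholesterol biosynthesis genes 10 fell and 2 were not called by limma, with 0 higher at an unadjusted p under 0.05 and a median of -0.79. Sqle, squalene epoxidase, read 1.20, 1.54 and 1.36 in DN and -1.55, -1.45 and -1.71 in CD8SP cells (-2.93 ± 0.13), and Idi1 fell by 2.76 ± 0.17, Cyp51 by 1.21 ± 0.10 and Hmgcs1 by 1.13 ± 0.10. With the probe set of highest mean alone, Hmgcs1 was at -0.13 and not called (adjusted p = 0.698). Of 13 glycolysis genes 7 fell and 2 rose, with a median of -0.32. Tpi1 fell by 1.98 ± 0.11, while Pfkp rose by 0.53 ± 0.09 and the glucose transporter Slc2a1 by 0.32 ± 0.11. Slc2a1 lost its call without DN replicate 1, DN replicate 2, CD8SP replicate 2 or CD8SP replicate 3, which left 1 glycolysis gene called higher, and 4 were called higher without CD8SP replicate 1.

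Interferon-stimulated and MHC class I genes were higher in CD8SP cells. Of 23 interferon-stimulated genes 19 rose and 0 fell by limma, also 0 at an unadjusted p under 0.05, with a median of 1.76. Ifit1 read 0.92, 2.38 and 2.68 in DN and 6.01, 6.41 and 6.43 in CD8SP cells (4.29 ± 0.44, adjusted p = 2.61e-05). Oas2 rose by 2.40 ± 0.14, Rtp4 by 2.49 ± 0.25, Igtp by 2.20 ± 0.14 and Ifi35 by 1.65 ± 0.16. Of 16 MHC class I pathway genes 11 rose and 2 fell. Nlrc5, the activator of MHC class I genes, read 1.24, 2.34 and 2.04 in DN and 5.13, 5.04 and 5.09 in CD8SP cells (3.22 ± 0.26), and the class I heavy chains H2-D1 and H2-K1 rose by 2.03 ± 0.17 and 1.98 ± 0.20. The transporter subunits differed, with Tap1 at 0.75 ± 0.09 and Tap2 at -0.52 ± 0.13. Tap2 lost its call when only the 6 arrays compared were fitted (adjusted p = 0.051) and with quantile normalization (adjusted p = 0.0847).

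Of 13 BCL2 family genes 3 rose and 2 fell, shares near the 18.7% and 22.3% of all genes. Bcl2, which protects mature T cells from death, read 1.56, 1.90 and 1.89 in DN and 3.86, 3.58 and 3.68 in CD8SP cells (1.92 ± 0.14, adjusted p = 2.82e-06). Mcl1 rose by 0.98 ± 0.09, while the death gene Bid fell by 1.81 ± 0.17. The smaller calls of Bik (0.41, adjusted p = 0.0207) and Bcl2l1 (-0.42, adjusted p = 0.0476) each ended without DN replicate 1, without DN replicate 3 and without CD8SP replicate 1; that of Bik also ended without CD8SP replicate 3 and that of Bcl2l1 without DN replicate 2. Of 14 genes of the common cytokine receptor and IL-7 axis, 7 rose and 4 fell. Il4ra rose by 1.47 ± 0.13, Jak1 by 1.41 ± 0.13 and Jak3 by 1.05 ± 0.15, and Il9r fell by 0.94 ± 0.16. Quantile normalization ended the call of Il9r (adjusted p = 0.114). Il7r, the receptor for the survival cytokine IL-7, named after its values were seen, read 4.06, 5.38 and 5.31 in DN and 6.00, 6.03 and 5.94 in CD8SP cells, a rise of 1.07 ± 0.36 (adjusted p = 0.0336) between groups that both lay far above DP. DN replicate 1 was the lowest DN array for Il7r, and the rise without it is not given here.

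**Figure D4:**
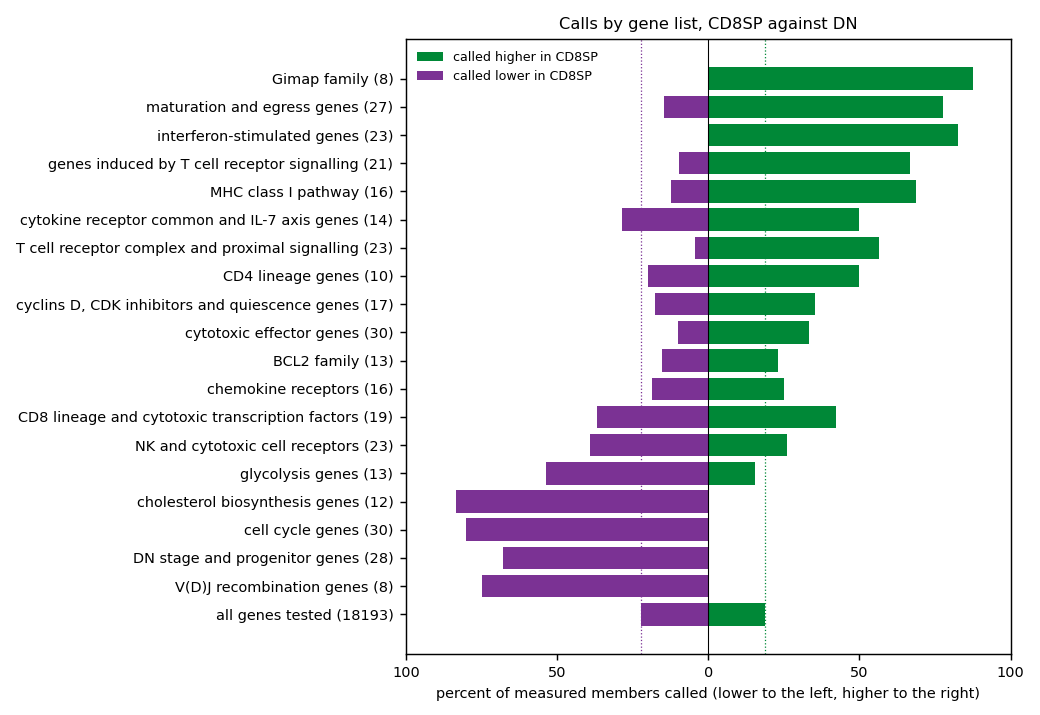
Bars give the percent of measured members called higher (green, to the right) or lower (purple, to the left) in CD8SP for all genes tested and for 19 gene lists, with the number of measured members in brackets and dotted lines at the shares of all genes, 18.7% and 22.3%. Gimap, interferon-stimulated and maturation lists extend to the right, cell cycle, cholesterol, V(D)J and DN stage lists to the left, and the effector and receptor lists reach to both sides.

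To see which of these rises were peculiar to the CD8 branch, CD8SP cells were set against CD4SP cells. CD8SP minus DN and CD4SP minus DN share the DN arrays, so their difference was tested directly as CD8SP minus CD4SP. In that comparison 2308 genes (12.7%) were called, 893 higher (4.91%) and 1415 lower (7.78%) in CD8SP. The count of higher genes moved with each CD8SP array: it was 1364 without replicate 1, 559 without replicate 2 and 538 without replicate 3. Of the 10 effector genes that rose over DN, 6 were also higher than in CD4SP cells: Nkg7 (6.08 ± 0.39), Cst7 (3.49 ± 0.35), Xcl1 (3.43 ± 0.22), Ctsw (1.90 ± 0.47), Prf1 (0.94 ± 0.11) and Ccl4 (0.56 ± 0.13). All 6 receptors that rose over DN were higher than in CD4SP cells, from Klrd1 (4.46 ± 0.42) to Hcst (0.67 ± 0.15). These genes were picked as high on the same CD8SP arrays, so both counts lean upward. Of all 30 effector genes 8 were higher and 1 lower than in CD4SP cells. Of all 23 measured receptors 6 were higher and 0 lower.

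Among genes outside the effector and receptor lists, Itgae was higher in CD8SP than in CD4SP cells by 5.93 ± 0.40, Eomes by 3.30 ± 0.63, Cxcr6 by 3.27 ± 0.56, Dapl1 by 2.20 ± 0.22 and Runx3 by 0.83 ± 0.12. For Ctsw the CD4SP arrays at 3.98, 4.18 and 4.26 lay between DN and CD8SP cells. For Nkg7 the CD4SP arrays at 1.71, 1.03 and 1.61 lay below all DN arrays, so DN cells were the nearer of both groups to CD8SP cells. For Gzma the CD4SP arrays at -3.78, -4.72 and -3.88 lay below those of both other groups, and CD4SP minus DN was -7.22 ± 0.34. By contrast Klf2, S1pr1, Bcl2, Ifit1 and H2-K1 differed from CD4SP cells by -0.24 to 0.10 and were not called there. Zbtb7b, which did not differ from DN cells by the test, was lower in CD8SP than in CD4SP cells by 3.01 ± 0.21. Tnfrsf4, a costimulatory receptor, was lower by 3.30 ± 0.12, and Gata3 by 1.80 ± 0.22.

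Markers of other cells were read on the same arrays, since the DN gate names no marker of B, NK, myeloid or γδ T cells. Over all genes 18.7% rose and 22.3% fell. All 6 measured γδ T cell markers fell, and their mean ran from 2.13 to 2.85 over the DN arrays and from 0.37 to 0.74 over the CD8SP arrays. With quantile normalization 3 were called lower, and Cd163l1 (adjusted p = 0.0893) and Blk (adjusted p = 0.0582) were among those that lost their calls. Maf turned to 0.49 (adjusted p = 0.00615) with its least variable probe set. Trgv4, a γ chain segment, read 6.20, 6.65 and 6.82 in DN and 0.56, -0.11 and -0.31 in CD8SP cells. Of 12 neutrophil markers 9 fell (list means 2.85 to 4.65 in DN, 0.10 to 0.34 in CD8SP), with Camp at 7.26, 8.28 and 10.28 in DN cells and its highest level on DN replicate 3. Of 18 myeloid and dendritic markers 8 fell and 1 rose (1.01 to 1.97 against 0.09 to 0.26), and Lyz2 read 2.87, 4.29 and 5.35 in DN cells.

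Of 8 NK and innate lymphoid markers 5 fell and 1, Eomes, rose, beside 22.3% and 18.7% of all genes. Of 11 B cell markers 2 fell and 1 rose (0.27 to 1.60 against 0.05 to 0.23), and 8 fell and 0 rose without DN replicate 1, which had Cd79a at 1.38 against 4.06 and 3.68. The count of B cell markers called higher was also 0 without CD8SP replicate 1 or CD8SP replicate 3. The part of these cells in the effector, receptor and DN stage results was not tested. Since the deposited values are relative to DP cells, no marker can be called absent.

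Erythroid markers had 2 of 5 higher (1 without DN replicate 1 or 3 or CD8SP replicate 1 or 2), thymic stroma 4 of 15 higher and 2 lower, and their list means stayed between -0.44 and 0.13 on all 6 arrays. The shares over all genes were 18.7% higher and 22.3% lower. Regulatory T cell markers had 4 of 7 higher, led by Gpr83 (2.82 ± 0.17), and 2 lower, Il2ra and Ctla4 (-1.36 ± 0.21), with list means of 0.67 to 0.99 in DN and 0.83 to 0.93 in CD8SP cells. Quantile normalization ended the call of Ctla4 (adjusted p = 0.167). The 13 DP markers fell for 8 and rose for 1, with list means of -2.12 to -1.86 in DN and -5.04 to -4.71 in CD8SP cells. Dissociation and heat shock genes had 4 of 15 higher, among them Egr1, Ier2 (1.67) and Junb (1.34), and 3 lower, calls that quantile normalization ended: Jun (-1.41), Hsp90aa1 (-0.92) and Hspe1 (-0.44, lost without DN replicate 1 or any 1 of the CD8SP arrays), with list means of 0.12 to 0.31 in DN and 0.16 to 0.39 in CD8SP cells. Egr1 and Junb also belong to the TCR-induced list. The part of handling in those genes was not tested.

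**Figure D5:**
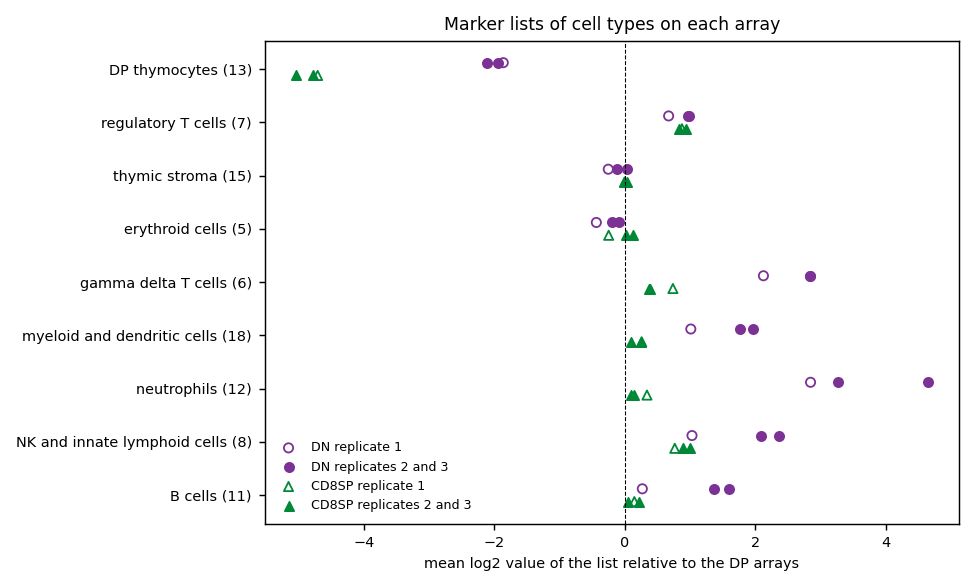
For 9 marker lists the mean log2 value relative to DP is plotted for each DN array (purple circles) and CD8SP array (green triangles), with open symbols for the arrays numbered 1 and the number of measured markers in brackets. DN arrays lie above CD8SP arrays for γδ T cell, neutrophil, myeloid, B and NK lists, DN replicate 1 is the lowest DN array in each of these, and erythroid and stroma lists lie near 0.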

How the data were processed

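Sorted thymocyte RNA was hybridised to 12 Affymetrix mouse expression arrays, 3 for each subset, as the labels' protocols say. The authors deposited 1 log value per probe set and array, taken here as log2, a base that no source used here states. The submitters' processing notes name MAS5. For all 45101 probe sets the values average 0 over the DP arrays, so levels and signal over background are lost and dim probe sets could not be filtered. Array medians ran from -0.10 to 0.05, and nothing more was normalized.

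In the platform annotation 34958 probe sets had 1 symbol, 932 several and 9211 none; without 64 controls, 34945 probe sets gave 18193 genes. A RefSeq table of GRCm38.p6 held 34741 of them and updated 0 symbols. List members with no probe set are not analysed here.

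One limma model (limma 3.58.1, R 4.3.3) held all 12 arrays with a mean for each subset; eBayes was run without a trend, p-values are two-sided, and Benjamini-Hochberg adjustment ran over all genes. It was tested on simulated data, in which 200 of 18193 genes differed between CD8SP and DN: 38.8%, 77.6% and 98.5% of log2 changes of 0.5, 1 and 2 were called, and 7 unchanged genes. The simulation changed far fewer genes than were called here, and its noise was independent between genes. Its rates therefore need not hold for this comparison. The members and the 30 lists were chosen with earlier results of these data known. Named genes are the sort genes, the 12 largest rises and falls among called genes without overlapping arrays (clone identifiers passed over), all effector and receptor genes, and of other lists up to 4 members of lowest adjusted p, and called members against the list's direction. Alternatives were other probe sets for a gene, a spread filter, a trend, fewer arrays, other normalizations, array weights and replicate blocks. Single DN or CD8SP arrays were also left out.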

Additional observations from a re-analysis of the deposited data

Results flagged for a closer look

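The results below were singled out because CD8SP and CD4SP cells differ from DN cells in opposite directions, with both changes called and the difference between them called by limma. The difference CD8SP minus CD4SP is given first, then each change from DN. Groups of 3 arrays were too small for a test of single outlying arrays.

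Of the sort genes, Cd4 differed by -8.26 (CD8SP minus DN -3.68, CD4SP minus DN 4.58), Cd8a by 6.20 (3.39 and -2.81) and Cd8b1 by 4.83 (2.86 and -1.97). The CD8SP and CD4SP gates differ in CD4 and CD8a; the DN and CD8SP gates are both CD4-.

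Nkg7 differed by 6.08 ± 0.39 (2.65 over DN in CD8SP, -3.43 in CD4SP, adjusted p = 7.37e-06) and Cst7 by 3.49 ± 0.35 (1.84 and -1.65, adjusted p = 0.000162). Among the receptors, Klrd1 differed by 4.46 ± 0.42 (3.01 and -1.45, adjusted p = 0.000112) and Cd160 by 2.72 ± 0.22 (1.53 and -1.19, adjusted p = 3.85e-05). For these 4 genes DN cells held a level between those of the single-positive subsets.

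Stat5b differed by -0.99 ± 0.14 (-0.50 and 0.49, adjusted p = 0.00118) and Bcl2l1 by -0.88 ± 0.15 (-0.42 and 0.46, adjusted p = 0.00377). Their changes from DN to CD8SP were lost in 7 and 11 of the 17 alternatives.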

How the results depend on the processing

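Of the 195 named genes 167 were called. Of these, 119 kept their call and direction under all of the 17 alternatives that measured them. The other 48 lost or turned their call under at least 1, and 12 uncalled genes became called under at least 1. The spread filter, which left out the most variable probe sets, left some genes with no probe set and so did not test them. Quantile normalization moved the counts over all genes the most. It gives every array the same spread, including the DP arrays, whose values average 0 by construction. The part of this in the lower counts was not tested. With quantile normalization 1257 genes were higher and 1877 lower in CD8SP than in DN, 473 and 492 by at least 2-fold. In that setting 111 were higher and 118 lower than in CD4SP, and 5 receptors fell. Fitting only the arrays compared gave 520 genes higher and 828 lower than in CD4SP, array weights gave 1589 higher, and the probe set with the highest mean 885 lower. No CD4SP array was left out. Leaving out 1 DN or CD8SP array at a time, the count higher than in CD4SP ran from 538 to 1364, and the effector genes called lower from 3 to 5. Without both arrays numbered 1 these were 1441 and 5. With the most variable probe sets left out, 6 effector genes rose and 3 receptors fell, against 8 and 5 with quantile normalization. No effector gene that kept a probe set lost its call under that filter. Among the receptors only Klrb1b lost its fall, and it was then called higher in CD8SP (0.49, adjusted p = 0.0297). The lower counts with the filter thus come largely from genes that it left unmeasured.

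Signs turned with another probe set for Klrb1b (0.49, under the spread filter too), Epcam (0.32, likewise), Maf (0.49), Zeb2 (0.11), Mycn (0.081), Ccr2 (0.074), Runx1 (0.051, under 2 choices) and Zbtb16 (0.0096), and under quantile normalization for Bcl2l1 (0.23). The cause was not tested.

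What a shared replicate number marks is not stated, and the main fit held no replicate block. Residuals of same-numbered DN and CD8SP arrays correlated at 0.121, 0.0389 and 0.0897. Those of differently numbered DN and CD8SP arrays correlated between -0.129 and 0.0591. With the replicate block 3608 genes rose and 4243 fell from DN to CD8SP, 1081 were higher and 1723 lower than in CD4SP, and 12 effector genes rose and 3 fell, with 6 and 9 receptors. Among the named genes the block added the calls of Tnfsf10 (0.31, adjusted p = 0.0234) and Stxbp2 (0.24, adjusted p = 0.0208) as higher and Ighm (-0.25, adjusted p = 0.0487) as lower, and ended that of Bcl2l1 (adjusted p = 0.0585). Signal over background is lost in these values, so which genes were too dim to measure is unknown.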

Other observations

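Cd79b, a B cell receptor chain chosen here after its values were seen, read -0.37, 1.47 and 1.19 in DN, -0.79, -0.11 and -0.08 in CD8SP and -5.07, -4.09 and -4.47 in CD4SP cells. CD8SP minus DN was not called (-1.09, adjusted p = 0.0724), while CD8SP minus CD4SP was 4.22 ± 0.44 (adjusted p = 0.000221).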
